A study of Drosophila melanogaster with 2 samples.

Results

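Distal sites between genes are the places at which CG30431-GFP was bound far from any annotated transcript start and outside every annotated gene. CG30431, a zinc-finger protein of the fly, was mapped by chromatin immunoprecipitation and sequencing (ChIP-seq) in whole Drosophila melanogaster embryos. A site was a peak of the authors' reproducible list on build dm6 whose summit lay over 2000 bp from every transcript start and inside no gene of Ensembl release 115, transposable elements left out. The rule kept 350 of 3314 peaks (10.6%, interval 9.53 to 11.7). Another 748 peaks lay as far from every start but inside genes, and 965 between genes but within 2000 bp of a start.

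The series holds 1 group of 2 biological replicates. All embryos were 0 to 24 h old, of both sexes pooled, and came from 1 transgenic line that stably expresses CG30431 with GFP at its C-terminus. Chromatin sheared to 200 to 800 bp was precipitated through the GFP tag. The line limits the model: the profile is that of a tagged transgenic protein, whole embryos mix all tissues and stages, and whether the endogenous protein was also present is not given in the labels. The files give each peak's position and the authors' signal value but no read counts, so depth is unknown. With no second condition, and because sites are not replicates, no test was run: every comparison below is a description, and each interval is an exact 95% interval that covers only the number of peaks, genes or windows counted.

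In the compact fly genome most transcription starts lie close to other genes, and the longer gaps between genes often hold enhancers, silencers and boundary elements. Enhancers and silencers act on promoters from a distance, and boundary elements limit which promoters they reach. Many zinc-finger proteins with an N-terminal zinc-finger-associated domain (ZAD), a family expanded in insects, bind such elements through arrays of C2H2 fingers. The sites between genes are therefore described by their sequence, strength, gap, neighbours and spacing.

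Sequences of 10 strong sites on 2L, 3L and 3R, each also among the strongest entries of both replicates' own lists, show what the summits look like. Each spans 100 bp on either side of the summit, from the dm6 reference, named by the genes on either side. Capitals mark every match, on either strand, to CACTG (the core) or to 4 longer sequences built on it, CACTGTGC, CACAGTGG, CACTGAGA and TACACTGA, called 8-mers 1 to 4. 8-mers 1 and 2 share CACTGTG once the second is read on the other strand, and 8-mers 3 and 4 share CACTGA, so a stretch can count under both.
CG43131 and RabGGTa, chr3R:5113149-5113349, plus strand: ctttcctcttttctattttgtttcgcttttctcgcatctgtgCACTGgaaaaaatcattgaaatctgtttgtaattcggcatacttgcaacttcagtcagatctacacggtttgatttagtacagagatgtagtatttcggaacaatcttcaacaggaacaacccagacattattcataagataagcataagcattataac
slp1 and slp2, chr2L:3832425-3832625, plus strand: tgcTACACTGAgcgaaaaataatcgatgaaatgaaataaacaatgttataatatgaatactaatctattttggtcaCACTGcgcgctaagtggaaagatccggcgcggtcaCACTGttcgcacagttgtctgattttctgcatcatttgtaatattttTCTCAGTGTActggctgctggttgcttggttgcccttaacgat
COX7AL2 and CG31668, chr2L:2202319-2202519, plus strand: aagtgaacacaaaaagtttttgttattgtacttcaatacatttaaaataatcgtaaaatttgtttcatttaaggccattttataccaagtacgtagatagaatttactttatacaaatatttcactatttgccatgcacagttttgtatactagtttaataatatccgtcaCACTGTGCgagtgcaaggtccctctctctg
lncRNA:CR44603 and lncRNA:CR45695, chr2L:1638670-1638870, plus strand: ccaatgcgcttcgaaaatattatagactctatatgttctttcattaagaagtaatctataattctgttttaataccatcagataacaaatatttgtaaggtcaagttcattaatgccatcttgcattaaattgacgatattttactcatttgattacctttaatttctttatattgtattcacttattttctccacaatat
dpr17 and CG4702, chr3R:12121264-12121464, plus strand: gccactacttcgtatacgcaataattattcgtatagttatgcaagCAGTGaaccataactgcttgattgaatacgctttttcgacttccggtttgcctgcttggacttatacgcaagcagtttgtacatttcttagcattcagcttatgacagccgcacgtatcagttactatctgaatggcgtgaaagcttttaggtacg
lncRNA:CR44363 and CG7560, chr3L:11418445-11418645, plus strand: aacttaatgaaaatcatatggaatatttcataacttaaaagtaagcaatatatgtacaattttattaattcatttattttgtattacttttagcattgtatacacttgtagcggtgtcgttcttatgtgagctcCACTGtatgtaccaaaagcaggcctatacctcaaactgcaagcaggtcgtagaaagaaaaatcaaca
CheA75a and CG5103, chr3L:18281306-18281506, plus strand: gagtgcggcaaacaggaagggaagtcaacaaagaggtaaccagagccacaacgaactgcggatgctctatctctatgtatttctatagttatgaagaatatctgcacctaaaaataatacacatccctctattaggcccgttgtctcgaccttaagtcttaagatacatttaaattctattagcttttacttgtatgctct
lncRNA:CR45411 and lncRNA:CR43785, chr3L:725915-726115, plus strand: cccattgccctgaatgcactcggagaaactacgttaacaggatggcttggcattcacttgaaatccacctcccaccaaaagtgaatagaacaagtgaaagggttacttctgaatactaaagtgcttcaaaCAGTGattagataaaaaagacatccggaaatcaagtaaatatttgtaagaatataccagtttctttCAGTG
lncRNA:CR45411 and lncRNA:CR43785, chr3L:724508-724708, plus strand: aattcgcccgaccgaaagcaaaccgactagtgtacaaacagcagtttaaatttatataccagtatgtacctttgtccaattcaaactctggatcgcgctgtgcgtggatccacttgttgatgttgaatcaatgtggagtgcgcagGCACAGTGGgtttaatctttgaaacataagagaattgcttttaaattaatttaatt
CG13970 and CG10651, chr2L:20120969-20121169, plus strand: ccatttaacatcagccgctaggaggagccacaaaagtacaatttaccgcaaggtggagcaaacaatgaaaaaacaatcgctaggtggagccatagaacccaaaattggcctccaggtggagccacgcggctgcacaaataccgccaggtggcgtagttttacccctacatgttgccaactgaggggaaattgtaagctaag
The site between slp1 and slp2 held 4 core matches, with 8-mer 4 on its left and 8-mers 3 and 4 fused on its right. The site between COX7AL2 and CG31668 held 8-mer 1 on its right, and the site of signal 304 between lncRNA:CR45411 and lncRNA:CR43785 held 8-mers 1 and 2 fused. The site of signal 319 in that gap held 2 core matches with no 8-mer. The sites between CG43131 and RabGGTa, between dpr17 and CG4702 and between lncRNA:CR44363 and CG7560 each held 1 core match with no 8-mer. Of the 10, the 3 between CG13970 and CG10651, between CheA75a and CG5103 and between lncRNA:CR44603 and lncRNA:CR45695 held none.

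Over all 350 sites, the core lay in 209 windows (59.7%, interval 54.4 to 64.9), against 54.7% (51.0 to 58.3) of distal sites inside genes, whose interval overlapped, and 50% (48.2 to 51.8) of the other 2964 reproducible peaks. All 135489 windows of the same length that tile sequence meeting the rule of position, called eligible sequence here, held it in 27.9%. Any of the 4 8-mers lay in 80 sites (22.9%, 18.6 to 27.6), against 18.2% (15.5 to 21.1) of distal sites inside genes, 13.3% (12.1 to 14.6) of all other peaks and 2.31% of eligible windows. The letters had been picked on all peaks of these data, the sites included, so their excess over eligible windows is not independent of that choice.

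The 8-mers did not share this excess over other peaks evenly. 8-mer 3 lay in 40 sites (11.4%, 8.29 to 15.2), against 3.95% (3.28 to 4.71) of other peaks and 6.55% (4.89 to 8.57) of distal sites inside genes, whose interval overlapped that of the sites. 8-mer 4 lay in 30 sites (8.57%, 5.86 to 12.01), against 3.68% (3.03 to 4.42) of other peaks and 5.88% (4.31 to 7.82) of distal sites inside genes, again overlapping. 8-mer 1 lay in 14 sites (4%, 2.20 to 6.62), against 6.04% (5.21 to 6.96) of other peaks. 8-mer 2 lay in 18 sites (5.14%, 3.08 to 8.01), against 5.87% (5.05 to 6.78). So 8-mers 3 and 4 were the more frequent pair at these sites, and the intervals of 8-mers 1 and 2 overlapped those of other peaks. The pairs did not meet in these windows: 22 sites held 8-mer 1 or 2, 58 held 8-mer 3 or 4, and 0 of 350 held both. The upper limit of that share, 0.857%, is approximate and not an exact interval. With pairs this infrequent, few windows would hold both in any case. The share with both at other peaks is not given here, and whether the pairs avoid each other was not tested. Farther out they did meet, with both pairs centred within 150 bp of the summit in 2 sites and within 300 bp in 4 (1.14%).

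Sequences of known fly factors, searched in the same windows on both strands, had intervals that took in, or overlapped those of, their shares at other peaks. The insulator protein CTCF's core (AGNNGGCGC) lay in 16 sites (4.57%, 2.64 to 7.32), against 3.58% of other peaks and 1.27% of eligible windows. The core of su(Hw), another insulator protein (TGCATANTT), lay in 18 sites (5.14%, 3.08 to 8.01), against 2.77% (2.21 to 3.42) of other peaks and 2.37% of eligible windows. GAGAG, bound by GAGA factor, lay in 24.9%, against 22.9% of other peaks and 21.2% of eligible windows. TATCGATA, the DNA replication-related element found at many housekeeping promoters, lay in 3 sites (0.857%, 0.177 to 2.48), against 2.23% of other peaks and 0.443% of eligible windows. CAGGTAG, recognised by the early embryonic activator Zelda, lay in 4 sites (1.14%), against 0.945% and 0.883%. A match is a description of letters and says nothing of which factor is bound. GC content had a median of 35.8% at the sites, against 35.3% at other peaks and 41.3% in eligible windows. With eligible windows weighted to the GC content of the sites, the 8-mers lay in 2.34% of them and the core in 24.1%. The CTCF core then lay in 0.742%, the su(Hw) core in 2.65% and GAGAG in 18.1%, each below the sites' interval (20.4 to 29.7 for GAGAG). TATCGATA lay in 0.624% and CAGGTAG in 0.779%, both inside the sites' intervals.

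**Figure D1:**
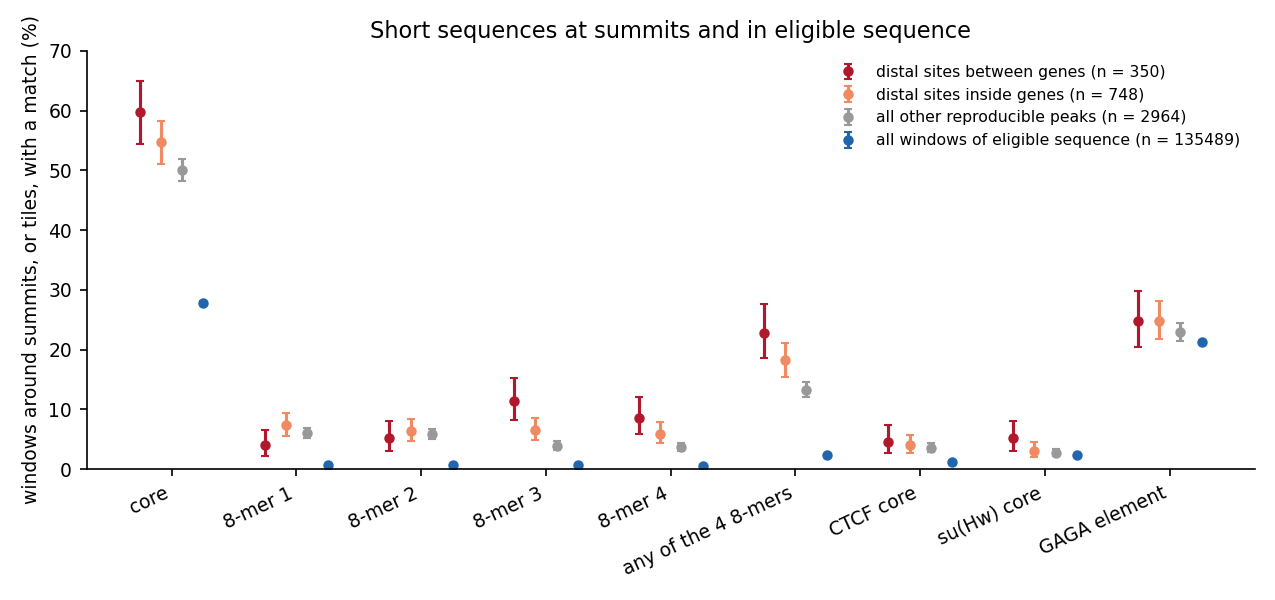
Share of windows, 100 bp on either side of the summit, holding each short sequence on either strand (y axis, percent), for distal sites between genes, distal sites inside genes, all other reproducible peaks and all eligible windows, with exact 95% binomial intervals. 8-mers 3 and 4 stand at 11.4% and 8.57% of the sites, above 3.95% and 3.68% of other peaks, while 8-mers 1 and 2 do not.

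The 8-mers lay beside the summits, mostly on 1 side. The reading directions were taken from an earlier look at all peaks of these data, so the side describes and does not test. Read as TCTCAGTG, 8-mer 3 had 38 of its 44 matches within 100 bp downstream of the summit (86.4%), these at a median of 69.0 bp. Read as TCAGTGTA, 8-mer 4 had 29 of 32 downstream (90.6%), these at a median of 66.5 bp. Read as CACTGTGC, 8-mer 1 had 12 of 14 downstream, at a median of 60.0 bp, and read as CCACTGTG, 8-mer 2 had 16 of 18, at 49.5 bp. These medians depend on the limit of 100 bp: over all downstream matches within 300 bp they were 84.5 and 81.5 bp for 8-mers 3 and 4, and 102.5 and 76.5 bp for 8-mers 1 and 2. With 50 bp on either side of the summit the 8-mers lay in 7.43% of sites, and with 150 bp in 29.1%.

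**Figure D2:**
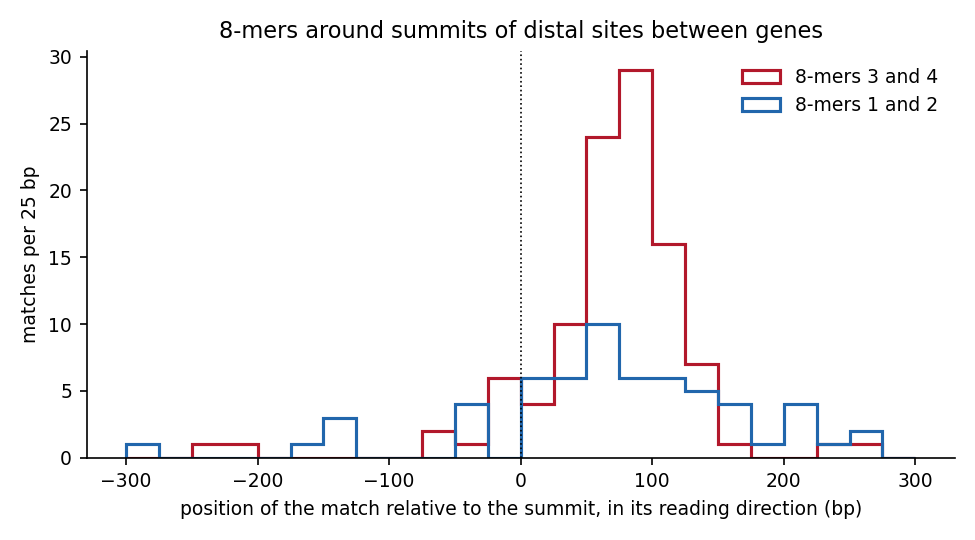
Positions of 8-mer matches within 300 bp of the summits of the 350 sites (x axis, bp, positive downstream in the reading direction; y axis, matches per 25 bp), for 8-mers 3 and 4 and for 8-mers 1 and 2. Overlapping matches of a pair are each counted. Both profiles peak between 50 and 100 bp downstream.

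The sites between genes were among the weaker peaks of the list. Their pooled signal, on a scale the sources do not state, had a median of 104 (quartiles 82.1 and 146, range 71.2 to 1104), against 107 at distal sites inside genes and 124 at all other peaks. The intervals of the first medians overlapped (97.6 to 112 and 103 to 110), and that of other peaks, 120 to 127, lay above both. In all 127 sites (36.3%, 31.2 to 41.6) exceeded the median of the whole list, against 41.8% (38.3 to 45.5) of distal sites inside genes and 51.6% of all other peaks. The 829 strongest peaks of the list took 49 sites (14%), against 26.3% of other peaks, and the 829 weakest took 123 (35.1%), against 23.8%. Among distal sites inside genes these shares were 16.6% (14.0 to 19.4) and 31.6% (28.2 to 35.0). Their intervals overlapped those of the sites (10.5 to 18.1 and 30.1 to 40.4). The reproducible list is the strongest part of a pooled list of 30000 entries. Of 5546 pooled entries that met the rule of position, 350 were reproducible (6.31%, 5.69 to 6.98), against 6.73% of those distal and inside genes and a background of 11.0% over all pooled entries. The other 5196 reached a median signal of 28.3 and a maximum of 70.5, below the lowest signal of the list, 70.8. The share that was reproducible thus restates signal and is not a separate measure.

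Strength and sequence went together only loosely. Sites with any of the 8-mers had a median signal of 112 (80 sites), against 100 without (270 sites), with quartiles that overlapped (86.6 to 171 and 81.5 to 143). In 5 groups of 70 sites, from weakest to strongest, the share with an 8-mer was 17.1%, 20%, 24.3%, 20% and 32.9%. The core gave medians of 103 with it and 104 without it.

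Each replicate held most of the sites among its own strongest entries. Of the 350, 317 (90.6%) lay in the 3314 strongest entries of replicate 1, against 90.6% of all reproducible peaks. In those of replicate 2 lay 282 (80.6%, 76.0 to 84.6), below the 87.2% (86.0 to 88.3) of all peaks. Distal sites inside genes stood at 86.2% there (83.6 to 88.6). In neither lay 2 sites (0.571%), against 0.845% of all peaks. Both held 251 (71.7%, 66.7 to 76.4), against a background of 78.7% over all reproducible peaks. At matched strength the shares were close: within the 829 strongest peaks both replicates held 48 of 49 sites, against 98.7% of all peaks there, and within the 829 weakest 38 of 123 (30.9%), against 31.7%. Signal values had a median of 60.6 in replicate 1 and 45.6 in replicate 2, and replicate 1 exceeded replicate 2 by a median factor of 1.36, close to the 1.34 of all peaks. A departure of more than 1 log2 unit from the median ratio of all peaks was seen in 24 of 345 sites with both values (6.96%, 4.51 to 10.2), against 4.47% (3.79 to 5.23) of all peaks. Across the 345 sites Spearman's rho between replicates was 0.649 and Pearson's r of log2 values 0.751, and these points share the list that both replicates helped to select.

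**Figure D3:**
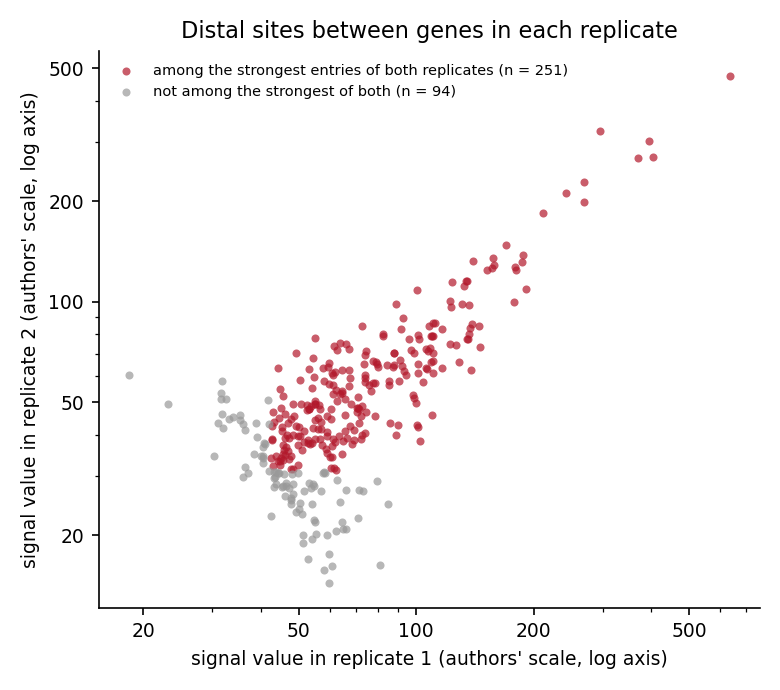
Authors' signal value of each site in replicate 1 (x axis) and replicate 2 (y axis), both on log axes, for the 345 sites with an entry at the summit in both, coloured by whether the summit lay among the 3314 strongest entries of both replicates (251) or not (94). Strong sites drawn here line up, and those outside the shared strongest set lie at low values of either replicate, as the colouring fixes. A site of signal 517 without an entry at the summit in replicate 2 is not drawn.

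Sites were sparser than peaks in general, and sparsest in the largest gaps. Eligible sequence covered 27.7 Mb (20.7%) of the chromosome arms and held 12.6 sites per Mb (11.3 to 14.0), against 24.8 peaks per Mb over the arms, a ratio of 0.51. By length of the gap between neighbouring genes, the density was 27.7 per Mb in gaps of up to 5 kb (30 sites), 16.5 at 5 to 10 kb (59), 19.9 at 10 to 20 kb (133), 13.1 at 20 to 50 kb (109) and 2.35 above 50 kb (19). The 72 gaps above 50 kb made up 29.1% of eligible sequence and held 5.43% of the sites. The longest gap with a site spanned 75047 bp, and the 38 gaps longer than that, 6.03 Mb in all, held 0 sites, as that choice of gaps fixes. Those 38 gaps were not blank in the pooled list: it had 184 entries there (30.5 per Mb), against 257 per Mb in gaps of up to 50 kb. Annotated transposable elements filled 16.3% of their eligible sequence, against 10.5% in gaps of up to 50 kb, and 2 of the 350 sites (0.571%) lay in such an element, against 12.3% of all eligible bases. The part of repeats in these counts was not tested. In gaps of up to 50 kb alone, a limit set after the densities were seen, the density was 16.8 per Mb (15.1 to 18.8), 0.68 times that of all peaks.

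The arms differed. Per Mb of eligible sequence, 3L held 16.8 sites (124 sites), 2L 16.6 (83), 3R 11.9 (64), X 9.06 (37) and 2R 7.09 (41), while all peaks ranged over these 5 arms from 21.2 per Mb on 2R to 27.3 on X. The small chromosome 4 held 1 site of its 3 peaks. In gaps of up to 50 kb the values were 23.6 on 3L (19.4 to 28.6), 19.6 on 2L (15.6 to 24.3), 14.0 on 3R (10.8 to 17.8), 12.5 on 2R (8.92 to 17.1) and 11.9 on X (8.39 to 16.4). The interval of 3L lay above those of 3R, 2R and X, and that of 2L overlapped every other.

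**Figure D4:**
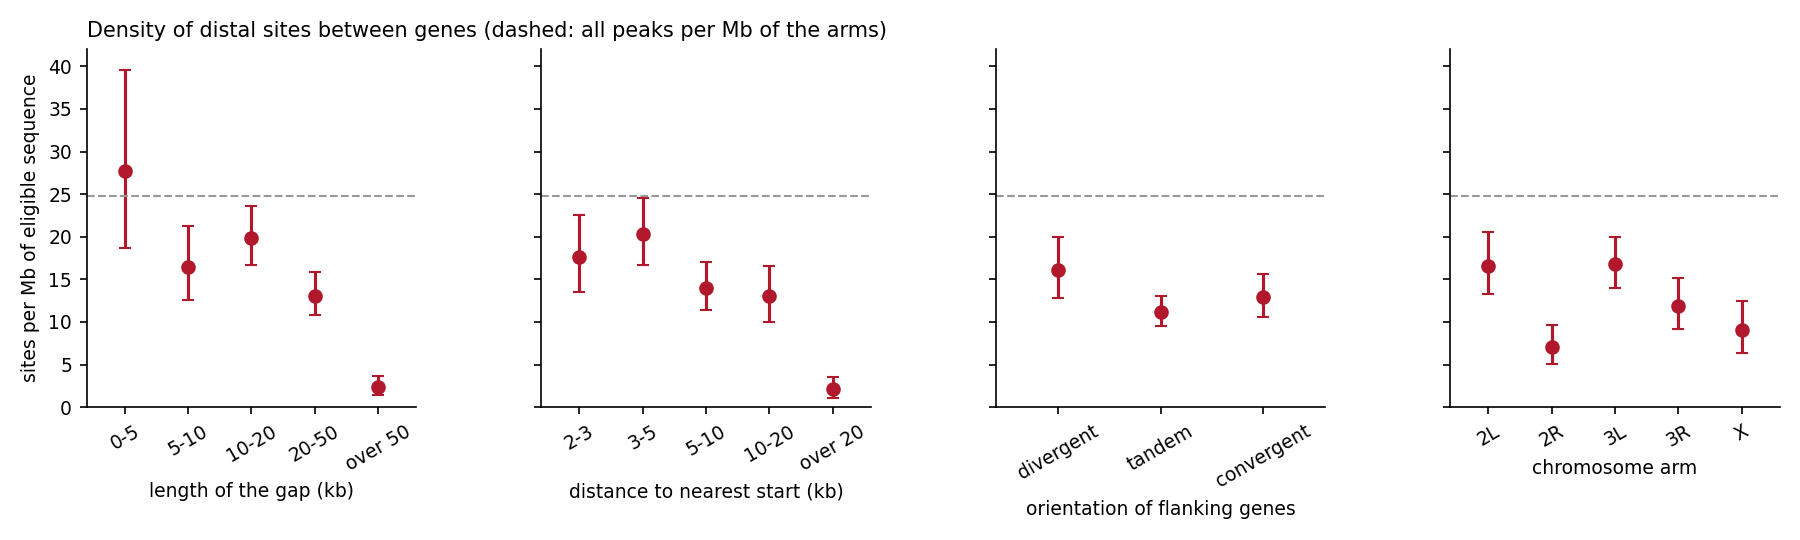
Sites per Mb of eligible sequence (y axis, points with exact Poisson 95% intervals) by gap length, distance to the nearest start, orientation of the flanking genes and chromosome arm; the dashed line marks the 24.8 peaks per Mb of all reproducible peaks over the arms. Density drops to 2.35 per Mb in gaps over 50 kb and 2.08 per Mb at over 20 kb from a start.

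Most gaps held no site and a minority held several. A site's gap had a median length of 16598.5 bp (quartiles 9983 and 26859), against 25483 bp for an eligible base. By gaps, 241 of 3131 with eligible sequence held a site (7.70%), with a median length of 13513 bp, against 5949 bp for all 3131. A single site lay in 168 gaps, 2 in 51, 3 in 13, 4 in 6, 5 in 1 and 6 in 2, so 182 sites (52.0%) shared their gap. The nearest other site lay at a median of 9834 bp (quartiles 2148 and 93560), within 2000 bp for 83 sites (23.7%) and within 10000 bp for 177 (50.6%). With peaks of every class counted, the nearest lay at a median of 5833 bp from a site, against 5723 bp from any other peak, and within 2000 bp for 26.6% of sites, against 28.0%. Neighbouring sites formed 44 pairs within 2000 bp, which the rule on starts keeps within 1 gap.

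The closest pairs were closer than a usual entry is wide. The summits between lncRNA:CR46197 and CG6244 on 3L stood 200 bp apart, with signals of 145 and 73.1. Those between CG13321 and Psc stood 203 bp apart, with 517 and 488. Those between lncRNA:CR45411 and lncRNA:CR43785 stood 204 bp apart, with 304 and 195, and the pair between Toll-6 and CG33259 tied with them, with 120 and 72.6. In all 10 pairs lay within 364 bp, the usual width of an entry, and whether such a pair is 1 bound place split by the peak caller cannot be told from the lists. Counting each as 1 left 340 sites.

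Per base of eligible sequence, orientation of the flanking genes set the sites apart only slightly. Genes that point away from each other (divergent) flanked 83 sites (23.7%, 19.4 to 28.5), against 18.6% of eligible bases, or 16.1 sites per Mb (12.8 to 19.9). Genes on the same strand (tandem) flanked 162 (46.3%), against 52.0% of eligible bases, or 11.2 per Mb (9.56 to 13.1). Genes that point at each other (convergent) flanked 105 (30%), against 29.3%, or 12.9 per Mb (10.6 to 15.6). The intervals of divergent and tandem gaps overlapped narrowly. Counted by gaps, 11.4% of divergent, 8.08% of tandem and 5.63% of convergent gaps with eligible sequence held a site. These gaps had median lengths of 9301, 7101 and 1847 bp, which the shares do not allow for. The nearest gene end was a 5' end for 151 sites (43.1%, 37.9 to 48.5), against 41.7% of eligible bases, so the sites faced starts and ends about as the sequence itself does.

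The rule set the distance to a start at over 2000 bp, and within it the sites kept to the nearer part. Their distance had a median of 5177.5 bp (quartiles 3384 and 9334), against 7982 bp for an eligible base and 5399.5 bp at distal sites inside genes. Density was 17.6 sites per Mb at 2 to 3 kb, 20.3 at 3 to 5 kb, 14.0 at 5 to 10 kb, 13.0 at 10 to 20 kb and 2.08 above 20 kb, where 14 sites lay. Bases that far from a start can lie in the same sparse gaps over 50 kb. Distance was not examined apart from gap length, so whether this drop is separate from that in long gaps was not tested. Just inside the limit stood sites at 2013 bp from a start of lncRNA:CR45569, 2026 bp from tRNA:Ile-TAT-1-2 and, tied at 2030 bp, from lncRNA:CR45737 and Teh1, with signals of 75.6, 76.1, 74.3 and 114. Just outside it stood peaks at 1974 bp from lmd, 1963 bp from CG4218 and 1955 bp from CG33467, with 84.4, 266 and 142. The farthest site, of signal 84.7, lay 36665 bp from a start in the gap between NijA and CG43245.

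The strongest site lay in a gap next to a Polycomb group gene. Its summit on 2R at 13035348 (peak 13035180 to 13035494) had a pooled signal of 1104, with 634 in replicate 1 and 474 in replicate 2, and ranked 11 in the whole list. It lay between Su(z)2, whose end was 27437 bp away, and CG13323, the nearer gene, whose end was 9347 bp away. Su(z)2 and its neighbour Psc are paralogs, and Psc encodes a subunit of Polycomb repressive complex 1, which keeps developmental genes silent. A cluster of 3 sites lay on the far side of Psc, between CG13321 and Psc. Their summits were at 12958226 (signal 640, with 369 in replicate 1 and 269 in replicate 2), 12959271 (517, with 287 in replicate 1 and no entry at the summit in replicate 2) and 12959474 (488, with 268 and 228). The summit at 12959271 was the only site stronger than the lowest named one that was not among the strongest of both replicates. Between the paralogs, a promoter peak at a start of lncRNA:CR44339 reached 735, and peaks inside Psc and Su(z)2 reached 171 and 71.0. The flanks of this gene pair thus held 3 of the 6 strongest of the 20 sites named here. Naming required a place among the strongest entries of both replicates, so their high values in both were fixed by that choice.

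Other strong sites lay beside genes of varied function. Between blw, which encodes the alpha subunit of mitochondrial ATP synthase, and the mitotic cyclin gene CycB, a site on 2R at 22802947 had a signal of 701 (395 and 303 in replicates 1 and 2). It lay 574 bp from the end of CycB in a convergent gap of 1340 bp, so both genes' starts were far although the gap was short. Between CG43131 and RabGGTa, a subunit of the enzyme that attaches lipid anchors to Rab proteins, a site on 3R at 5113249 had 675 (405 and 272). Between slp1 and slp2, paired forkhead genes of segmentation, the site on 2L at 3832525 had 626 (295 and 326), the only one of the 6 strongest named sites with the higher value in replicate 2. It lay 4315 bp from the start of slp2, and further sites at 3827943 (signal 155) in the same gap and at 3841145 (96.9) beyond slp2 bracketed that gene.

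Farther down, the site between COX7AL2, a gene like those of cytochrome c oxidase subunits, and CG31668 on 2L had 468 (269 and 198). The site between lncRNA:CR44603 and lncRNA:CR45695 had 452 (242 and 212), and that between dpr17, an immunoglobulin-domain gene of neurons, and CG4702 had 405 (211 and 184), 219 bp from the end of CG4702. The site between lncRNA:CR44363 and CG7560 had 368 (190 and 109), and that between CheA75a and CG5103 had 326 (187 and 138). The other 9 of the 20 ran from 321 down to 273. They included a site 3364 bp before the start of foxo, the forkhead gene of insulin signalling (294, with 157 and 136), and a site 1429 bp past the end of Rh5, which encodes a rhodopsin (273, with 177 and 99.6).

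Several gaps held rows of sites. Between lncRNA:CR44363 and CG7560 (19.1 kb, 3L) 6 sites lay 9.38 to 16.4 kb into the gap, with signals of 135, 220, 142, 75.7, 368 and 112 from left to right. Between NijA, a ninjurin cell adhesion gene, and CG43245 (75047 bp, 3L, divergent) 6 sites had 84.7, 120, 167, 251, 85.8 and 224, all on the side nearer CG43245 and 5 of them among the strongest of both replicates. Between tRNA:Ile-TAT-1-2 and CG13898 (33.0 kb, 3L) 5 sites had 76.1, 236, 137, 74.4 and 103. Between lncRNA:CR44603 and lncRNA:CR45695 (20.9 kb, 2L) 4 sites had 222, 91.8, 452 and 271. Between lncRNA:CR45303 and lncRNA:CR45693 (11.8 kb, 2L) 4 sites had 83.2, 71.9, 283 and 183. The last 2 gaps are those with the strongest sites among 6 gaps that hold 4. The next longest gaps with a site after that of NijA were those between lncRNA:CR46353 and the cell death gene rpr (73.5 kb, 3 sites, the strongest of 204), between the POU-domain gene vvl and lncRNA:CR45115 (70.5 kb, 3 sites, 121), between the Toll receptor gene Toll-6 and CG33259 (63.5 kb, 2 sites, 120) and between lncRNA:CR45229 and CG16894 (60.6 kb, 2 sites, 109).

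**Figure D5:**
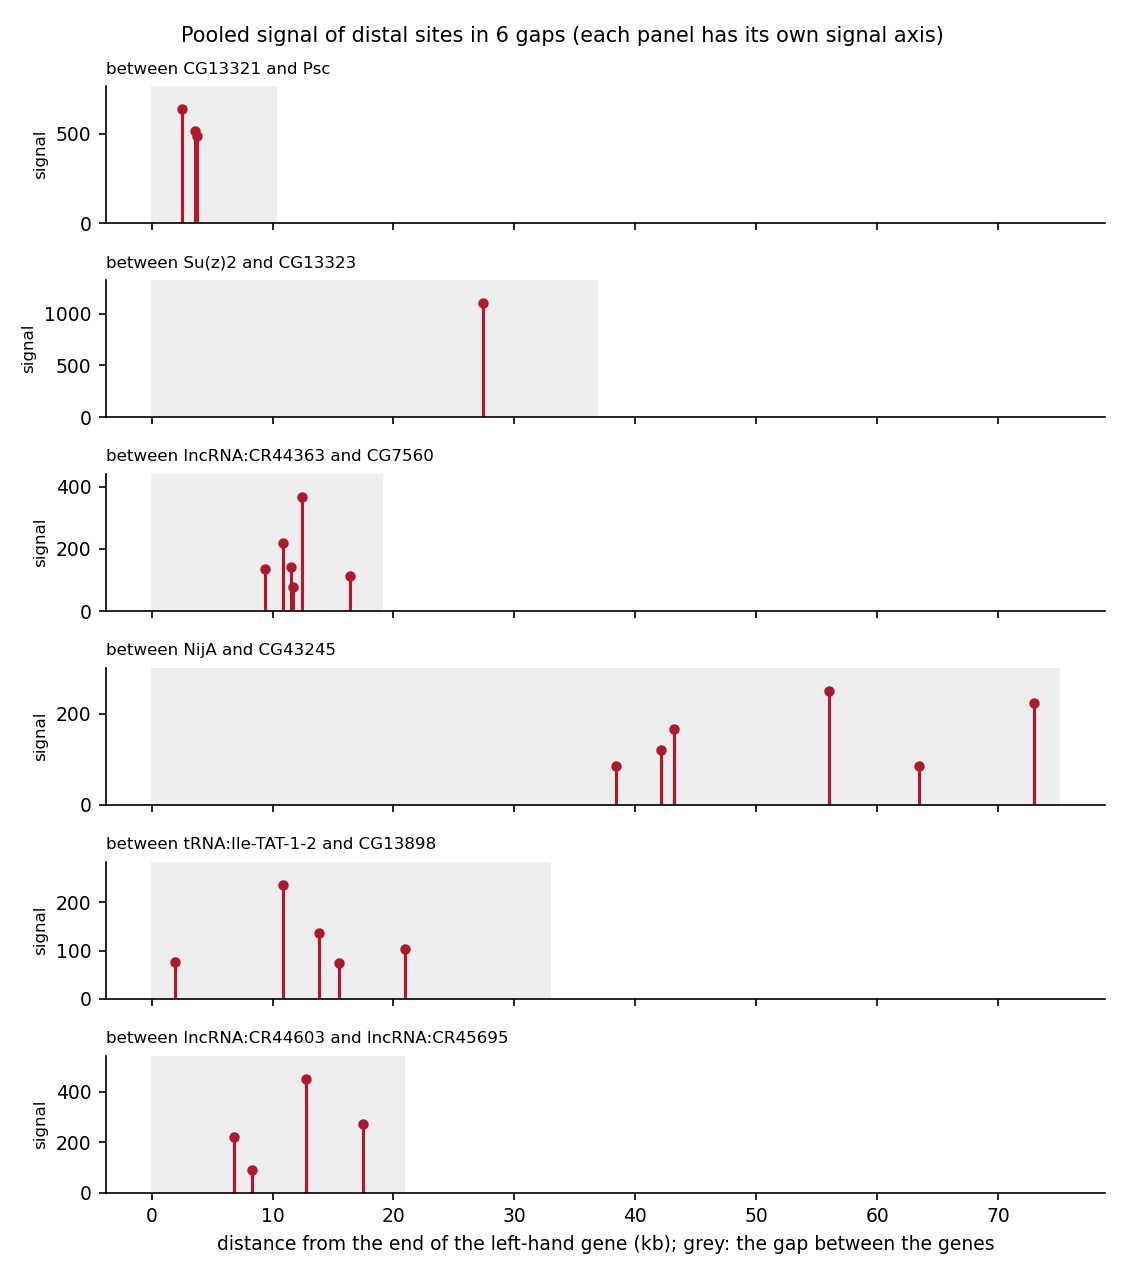
Pooled signal of each site (y axis, authors' scale, one axis per panel) against its distance from the end of the left-hand gene (x axis, kb) in 6 gaps, shaded over their length: the gaps on both outer sides of Psc and Su(z)2 and 4 of the gaps with the most sites, the last chosen among 6 with 4 sites by its strongest site. The single site beyond Su(z)2 reaches 1104, and the gap between NijA and CG43245 spreads 6 sites over its right-hand part.

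Some segmentation and signalling genes lay beside these sites. Of 3907 protein-coding genes that flank eligible sequence, 315 lay beside a site, a background of 8.06%. Of the gap, pair-rule and segment-polarity genes, which divide the embryo into segments, 7 of 20 did (35.0%). Those with the strongest sites were slp1 and slp2 (626 in their shared gap) and odd, a pair-rule zinc-finger gene (203). The others were ptc, the Hedgehog receptor gene (178), wg, the founding Wnt gene (171), hh itself (82.1) and kni, a gap gene (72.1). Their 32 gaps, with a median length of 10.01 kb against 5949 bp for all gaps with eligible sequence, held 14 sites. That was 38.5 per Mb of eligible sequence (21.0 to 64.5), against 12.6 over all eligible sequence, which takes in the sparse gaps over 50 kb. Gaps of 5 to 10 kb held 16.5 per Mb and gaps of 10 to 20 kb 19.9, the latter just below that interval. Of the secreted ligands, 5 of 15 did (33.3%): Wnt4 shared its gap and its 4 sites with wg, vn, a neuregulin-like EGF receptor ligand, had 1 (146), the FGF genes pyr and ths shared 2 (122 the stronger), and upd2, a JAK/STAT ligand, had 1 (76.2). The ligand gaps, with a median of 10.8 kb, held 8 sites, or 40.5 per Mb (17.5 to 79.9), an interval that took in 19.9. Among other patterning transcription factors 6 of 36 did (16.7%), led by the homeobox genes oc (230) and ems (146) and the Pax gene eyg (131). Their gaps held 19.0 sites per Mb (9.50 to 34.0), near the densities of gaps of 5 to 20 kb. Genes that share a gap count once each here, the lists and the sites had been chosen with these data known, and no test of the lists was made.

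The remaining lists were near or below the background. Neuronal adhesion and guidance genes lay beside a site in 4 of 38 cases (10.5%), with robo2, a Slit receptor gene, beside a site of 236, DIP-delta beside 117 and klg beside 84.0. Muscle genes did in 1 of 12 (Act87E, 94.9), cytoplasmic ribosomal protein genes in 1 of 17 (RpLP0, 92.7), ion channels and neurotransmitter receptors in 1 of 24 (nAChRalpha5, 93.0) and chemoreceptor genes in 2 of 70 (2.86%, Gr93a at 159 and Or85b at 140). None did of 7 Hox genes, 31 cuticle protein genes or 3 boundary protein genes, whose gaps held 0.0344, 0.131 and 0.000583 Mb of eligible sequence. The upper limits of the density were 107 sites per Mb for the Hox gaps and 28.1 for the cuticle gaps.

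The kinds of gene beside the sites varied. Both flanking genes were protein-coding for 151 sites (43.1%), against 49.4% of eligible sequence, or 11.0 sites per Mb. In 161 sites (46.0%) 1 was, against 41.6%, or 14.0 per Mb. Neither was for 38 (10.9%), against 8.97%, or 15.3 per Mb. The shares of genes that follow do not allow for how much eligible sequence each kind flanks. Of 954 genes for non-coding RNA beside eligible sequence 132 lay beside a site (13.8%, 11.7 to 16.2), against 8.06% (7.23 to 8.96) of coding genes and 9.18% of all 4999 flanking genes. Of tRNA genes 10 of 50 did (20%, 10.0 to 33.7), of pseudogenes 1 of 80 (1.25%, 0.0316 to 6.77), of snRNA genes 1 of 3, of rRNA genes 0 of 3 and of snoRNA genes 0 of 2. Coding genes beside a site had promoter binding about as often as the rest: 31 of 315 (9.84%, 6.79 to 13.7) had a reproducible peak within 500 bp of a start, against 10.7% of those without a site and a background of 10.6% over all that flank eligible sequence.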

How the data were processed

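ChIP-seq peak lists of 2 biological replicates on dm6 were used, grouped by the source label. Per the deposited readme, the authors made 1 list per replicate and 1 from both pooled, each with a control alignment, and selected reproducible entries by irreproducible discovery rate. Aligner, peak caller and thresholds: not given in the sources used here. The authors' signal value (column 7, scale not stated) belongs to each peak and served to describe or rank entries inside a list. Replicate lists may differ in depth, which is unknown. Lists on dm3 were not used.

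Genes were those of Ensembl release 115 (BDGP 6.54) on 6 arms, 18164 without transposable elements. The rule was tested on a made annotation. Flanking genes, gaps and eligible bases were counted exactly with Python 3.11.15, numpy 2.4.6, scipy 1.17.1 and pandas 2.3.3. The 95% intervals are exact binomial, Poisson or order-statistic ones.

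Named were the 20 strongest sites among the strongest of both replicates, 5 gaps with most sites (ties by the strongest site), 5 longest gaps with a site, 3 closest pairs, 3 peaks on each side of the limit, and up to 3 members per list. The slp2, hh, kni, ptc, wg and upd2 sites, ths, sites in the slp1 and Wnt4 gaps, other peaks around Psc, Teh1 and the farthest site were named after their values were seen. The members and lists were chosen with earlier results of these data known.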

Additional observations from a re-analysis of the deposited data

How the results depend on the processing

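Of 127 alternative values for 14 results, 94 were counted as unchanged and 33 as moved. A value with an interval counted as unchanged when it lay inside the interval of the reported one. The number of sites has no interval, and it counted as unchanged at 448 with starts over 1000 bp away and at 486 with protein-coding genes only. A median spacing of 15679.5 bp with starts over 5000 bp away also did, inside a wide interval (7156 to 16644). With starts over 1000 bp away, 13.5% of peaks were sites, their gaps had a median of 13123 bp, and 7.01% of flanking genes lay beside a site. With starts over 5000 bp away there were 178 sites (5.37% of peaks), 9.48 per Mb and 0.383 times the density of all peaks, in gaps with a median of 22521 bp. Of those, 19.1% lay in divergent gaps, 66.9% held the core, and 5.67% of pooled entries were reproducible. With protein-coding genes only, 14.7% of peaks were sites, at 15.1 per Mb (ratio 0.609), with a median gap of 25496 bp, 29.0% in divergent gaps and a median spacing of 6850 bp. With transposable elements counted as genes the density was 14.6 per Mb (ratio 0.588), and in gaps of up to 50 kb, chosen after seeing the data, 16.8 per Mb (ratio 0.68). The 1657 strongest peaks held 127 sites (7.66%), 4.58 per Mb (ratio 0.370), spaced by a median of 42119.5 bp, with 8-mers in 28.3%, and 3.38% of flanking genes beside a site. With 50 bp on either side of the summit 8-mers lay in 7.43% and the core in 26.0%, and with 150 bp in 29.1% and 71.7%. With all entries of each replicate list, 98.6% of sites lay in both. Without replicate 1 or 2, using the other's strongest entries, the number of sites was 346 or 357 and the density 12.5 or 12.9 per Mb. The ratio was 0.504 or 0.520, and 8-mers lay in 22.5% or 21.6%. Leaving out summits within 364 bp of a stronger one, also chosen after seeing the data, gave 340 sites and moved nothing beyond its interval. Unknown depth, a signal scale that is not stated, and counts that treat clustered sites as independent limit these values. No paired analysis was possible because there is 1 group and no test.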
